A study of Mus musculus with 36 samples.

Results

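Blood vessels and lymph vessels are lined by endothelial cells, and 36 genes that mark these cells or act when vessels sprout were followed through mouse kidneys and tumors. The genes were taken by symbol from a list of blood and lymph endothelial genes made with earlier results of these data known, out of 53379 genes counted, and their Ensembl IDs were matched to the GENCODE M21 annotation of build GRCm38. All 36 were found, 33 of them with the same ID version, and all 36 passed the filter on low counts in all 7 comparisons below. By role they were 20 junction, surface and vessel-wall genes, 9 growth factor receptors, ligands and genes of sprouting vessels, 6 transcription factors, and the lymphatic genes Lyve1, Prox1 and Flt4, the last 2 of which also stand in the other roles. A core list of 12 genes made by endothelial cells of most vessels was taken from the 36 (Pecam1, Cdh5, Tie1, Esam, Egfl7, Robo4, Mmrn2, Ecscr, Clec14a, Icam2, Adgrl4 and Erg).

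RNA was sequenced in 36 libraries, all from formalin-fixed, paraffin-embedded tissue. In the Sglt2-Cre; ASPSCR1-TFE3 LSL/+ mice, called fusion mice here, Cre driven by the promoter of the sodium-glucose transporter Sglt2 acts in the proximal tubule of the kidney and switches on the ASPSCR1-TFE3 fusion, an oncogene of alveolar soft part sarcoma and of a subset of renal cell carcinomas. From 6 such mice came 11 libraries of kidney tumors, 4 of retro-orbital tumors (mice 2, 3, 5 and 6), 3 of brain tumors (mice 1, 2 and 4) and 4 of non-transformed kidney (mice 1, 3, 4 and 5). Sglt2-Cre mice without the fusion gave 6 libraries of control kidney from 3 animals. In the second set, Cre driven by the promoter of the kidney transcription factor Pax8 gave dysmorphic kidneys in 5 Pax8-Cre; ASPSCR1-TFE3 LSL/+ fetuses, and 3 age-matched fetuses were controls. The sample labels give the control fetuses as Pax8-Cre, while the series text gives them as Pax8-Cre or ASPSCR1-TFE3 LSL/+, so that the control genotype is not settled, and no ages, strain or treatment are given. Libraries of the same tissue of the same mouse were summed, so that n counts animals.

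Endothelial cells hold together through adherens junctions built on VE-cadherin and keep a fate set by ETS and SoxF transcription factors. Vessel growth is driven by VEGF ligands acting on VEGF receptors, by angiopoietins acting on the Tie receptors, and by apelin acting on its receptor, while Prox1 and VEGF receptor 3 mark the lymphatic branch. The kidney holds several kinds of vessel bed, with fenestrated capillaries in the glomerulus and around the tubules, whereas brain capillaries are sealed by claudin 5 and form the blood-brain barrier. Several of the 36 are also known outside the endothelium: Prox1 in parts of the nephron and in neurons, Lyve1 in some macrophages, Pecam1 and Vwf in platelets, Fli1 in blood cells and Cav1 in smooth muscle and fat.

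Promoter sequence was at hand for 19 of the 36 genes, as 25 windows from 250 bases before to 50 bases after a RefSeq start in build GRCm38.p6. The 4 sequences searched on both strands were CACGTG, the E-box that TFE3 and its relatives bind, CCGGAAG and CAGGAAG, forms of the ETS motif, and ACAAT, the core of the SOX motif. The 2 ETS forms differ in a single letter, so no site matches both. CACGTG stood in 0 of the 25 windows and in 7.15% of all 32851 windows. CCGGAAG stood in 0 of the 25 and in 8.86% of all. CAGGAAG stood in 8 of the 25 (32.0%), against 13.3% of all windows, in Apln, Btnl9, Egfl7, Emcn, Erg, Rasip1 and Robo4. ACAAT stood in 7 of the 25 (28.0%), against 31.0% of all, in Btnl9, Cav1, Clec14a, Emcn, Erg, Robo4 and Tek. These shares describe letters in a window and name no factor at work. The 17 genes with no window were Pecam1, Cdh5, Esam, Vwf, Fli1, Sox7, Sox17, Sox18, Nos3, Plvap, Mmrn2, Ecscr, Aplnr, Angpt2, Ptprb, Icam2 and Lyve1.

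Of the windows with CAGGAAG, 3 are shown as examples, chosen after their values were seen from genes called higher in retro-orbital than in kidney tumors and lower in brain than in retro-orbital tumors. Erg and Egfl7, also with CAGGAAG, were called in both comparisons too, and with the mouse as a block Robo4, Btnl9 and Rasip1 were not called between retro-orbital and kidney tumors. They belong to Robo4, a guidance receptor of stable vessels (chr9:37401722-37402021, plus strand), Btnl9, a butyrophilin-like surface protein of capillaries (chr11:49187040-49187339, minus strand), and Rasip1, a Ras-binding protein needed for vessel lumens (chr7:45627287-45627586, plus strand). Each is written 5′ to 3′ along its gene, in lower case, with each CAGGAAG or its reverse complement in capitals.
Robo4: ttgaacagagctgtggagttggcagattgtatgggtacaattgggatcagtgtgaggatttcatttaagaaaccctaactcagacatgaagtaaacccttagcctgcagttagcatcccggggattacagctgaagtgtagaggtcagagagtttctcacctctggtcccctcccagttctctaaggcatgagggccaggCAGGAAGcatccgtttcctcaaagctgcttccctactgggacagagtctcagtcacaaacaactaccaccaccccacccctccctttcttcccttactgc
Btnl9: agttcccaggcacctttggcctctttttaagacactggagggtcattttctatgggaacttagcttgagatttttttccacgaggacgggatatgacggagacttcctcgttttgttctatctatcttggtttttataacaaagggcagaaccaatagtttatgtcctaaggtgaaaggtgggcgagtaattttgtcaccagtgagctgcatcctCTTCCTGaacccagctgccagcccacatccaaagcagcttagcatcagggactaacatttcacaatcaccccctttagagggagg
Rasip1: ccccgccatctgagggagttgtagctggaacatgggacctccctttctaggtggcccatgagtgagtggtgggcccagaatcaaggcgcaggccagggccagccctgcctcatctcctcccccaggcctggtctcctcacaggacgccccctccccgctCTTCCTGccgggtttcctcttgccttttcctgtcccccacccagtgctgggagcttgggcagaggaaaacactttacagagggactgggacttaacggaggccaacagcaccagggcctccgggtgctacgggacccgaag

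Each library held 80205573 to 121415057 counts. Gpnmb, a direct target of TFE3 fusions, was read first as a check of the labels, since the fusion transcript was not analysed here. Its level was 1.56 to 2.44 CPM (the count of a gene scaled to a fixed library total, itself corrected by TMM factors) in control kidneys, 108 to 450.4 in non-transformed kidneys of fusion mice, 2864 to 7030.5 in tumors of the kidney, 2931 to 4649 in those behind the eye and 2650.1 to 4139.5 in those of the brain. In every adult fusion animal and tissue it stood above the controls. Some samples stood apart by other cells' transcripts. The kidney tumors of mice 1, 4 and 5 held more of the proximal tubule gene Lrp2 (1370.0, 4433 and 4697 CPM) than those of mice 2, 3 and 6 (552 to 559). The summed level of 5 neuronal and glial genes was 33.1, 1348 and 342 CPM in the brain tumors of mice 1, 2 and 4. Results that rest on these samples are given with and without them where that changed a count. Comparisons that share a group of samples are not independent of each other.

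Of the 36 genes, the highest in control kidney per kilobase of exon was Adgrl4, a surface receptor of capillaries, at 46.6 ± 3.15 CPM per kb (mean ± SD, n = 3). It was followed by Emcn, a sialomucin of capillaries and veins (34.8 ± 2.42), Tek, the angiopoietin receptor Tie2 (31.3 ± 3.89), Eng, a TGF-beta co-receptor (24.6 ± 5.82), Ptprb, the phosphatase of Tie2 and VE-cadherin (21.3 ± 2.0), and Kdr, VEGF receptor 2 (21.3 ± 4.25). Adgrl4 lay above Emcn by more than their summed SDs, while from Emcn to Kdr each gene lay within the summed SDs of the next. The lowest 5 per kilobase were Btnl9 (0.709 ± 0.119), Sox17 (0.661 ± 0.0343), Vwf (0.66 ± 0.129), Lyve1 (0.265 ± 0.0797) and Apln, the ligand apelin (0.177 ± 0.0274). Of these neighbours, Vwf and Lyve1 alone differed by more than their summed SDs. The 36 genes thus spanned a wide range, and levels below are compared within a gene only, in CPM.

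**Figure D1:**
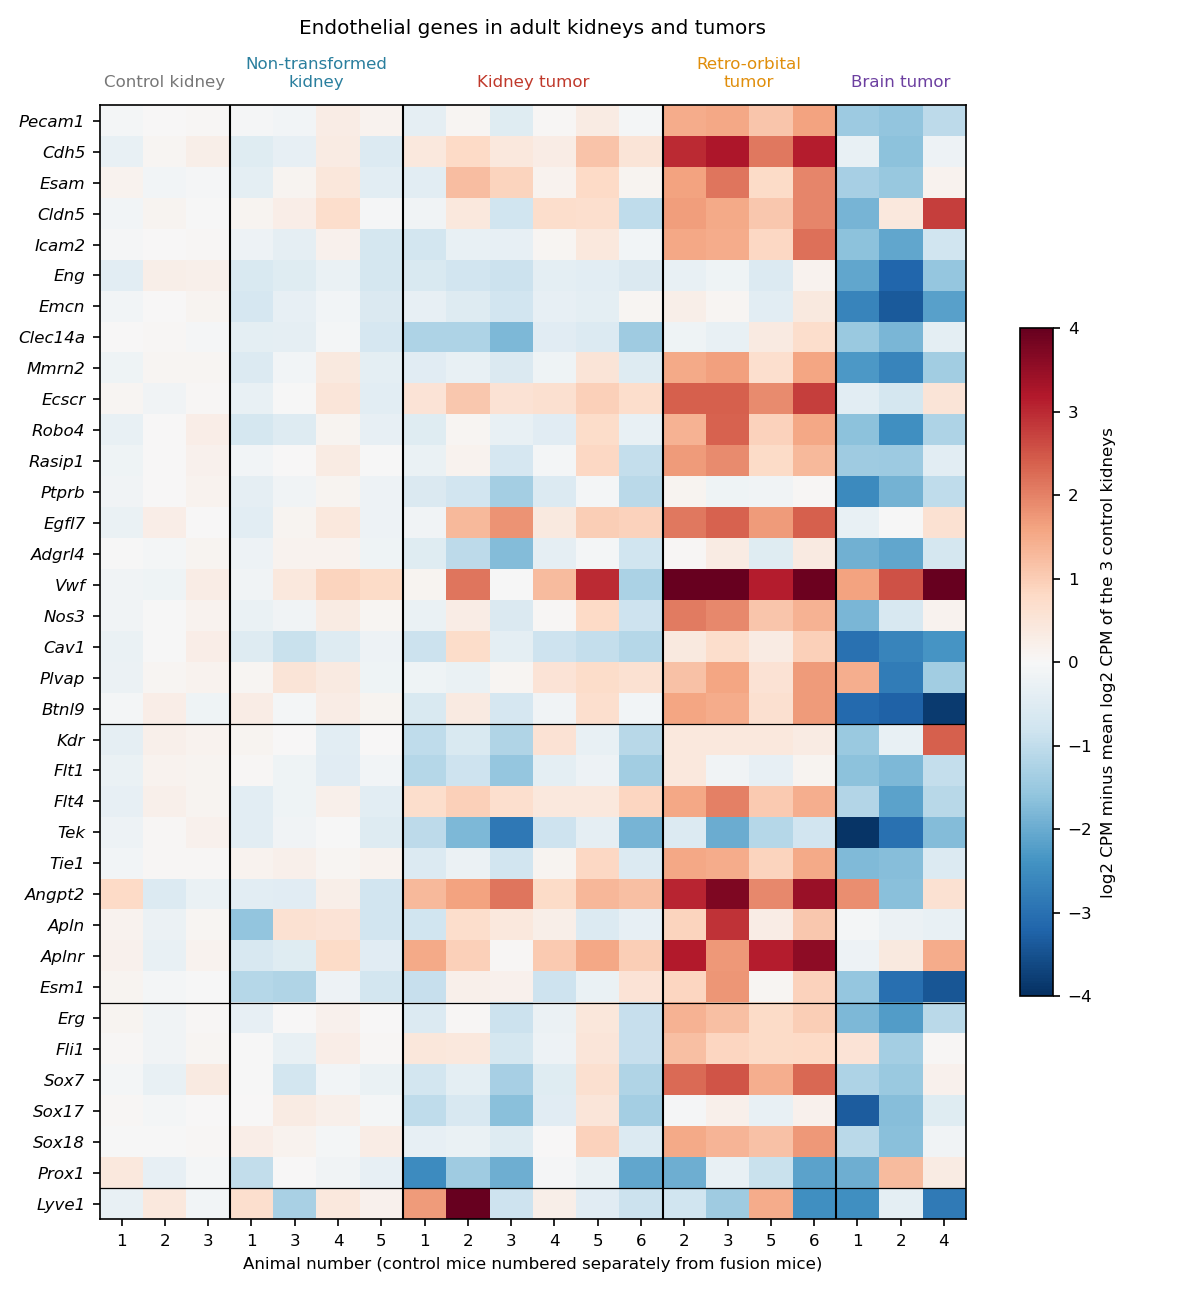
Level of each of the 36 genes in each adult animal, as log2 of CPM (0.1 CPM added) minus the mean log2 level of the 3 control kidneys. Columns are animals by group and rows are genes by role. The colour scale stops at 4 in either direction, with red above and blue below the control mean, so that a larger difference has the end colour. Values were also counted against the mean CPM of the controls, rather than the mean log2 level drawn. Above it lie 120 of 144 values in retro-orbital tumors, 89 of 216 in kidney tumors, 55 of 144 in non-transformed kidney and 20 of 108 in brain tumors.

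Kidney tumors were compared with control kidneys to ask how the vessels' transcripts of a tumor in the kidney differ from those of normal kidney. Of the 36 genes, 4 were higher in kidney tumors (Angpt2, Aplnr, Ecscr and Flt4), where 12.5% of all genes tested were higher, and 2 were lower (Eng and Clec14a), where 6.51% of all were lower. A gene was called higher or lower where its adjusted p was under 0.05 in edgeR's quasi-likelihood test with Benjamini-Hochberg adjustment over all genes tested, and every adjusted p below is of that test. DESeq2 called 5 higher (18.3% of all genes) and 5 lower (12.1%). The median log2 fold change of the 36 was -0.05, against 0.05 over all genes. Core genes summed to 451 to 509 CPM in control kidneys and 332 to 621 CPM in kidney tumors, so the ranges overlapped. In bulk tissue a smaller share of endothelial cells and less RNA of a gene in each cell cannot be told apart.

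Angpt2 (GRCm38 chr8:18690263-18741562), the angiopoietin that sprouting endothelium releases, was at 10.4, 4.01 and 4.84 CPM in the control kidneys of mice 1, 2 and 3 and 10.05 to 26.4 (median 14.8) in kidney tumors. Its mean was 2.54 times that of controls (log2 fold change 1.37 ± 0.39 (SE), adjusted p = 0.039). The groups overlapped only through control mouse 1, which lay above the lowest tumor. Aplnr (chr2:85136225-85139923), the apelin receptor of veins and sprouts, was at 12.1, 8.74 and 11.7 CPM in controls and 11.1 to 31.8 (median 21.8) in kidney tumors. It rose 2.12-fold (log2 fold change 1.11 ± 0.32 (SE), adjusted p = 0.0391), and the lowest tumor lay among the controls.

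Flt4 (chr11:49609263-49652739), VEGF receptor 3, found on lymph vessels, fenestrated capillaries and sprouts, was at 14.8, 21.3 and 19.9 CPM in controls and 24.5 to 35.5 (median 29.8) in kidney tumors. Every tumor was above every control (log2 fold change 0.69 ± 0.19 (SE), adjusted p = 0.0337). Ecscr (chr18:35713086-35722356), a surface protein of endothelial cells that acts in their migration, was at 6.12, 5.24 and 6.0 and 8.53 to 12.4 (median 9.27) CPM. It too was apart in all animals (log2 fold change 0.79 ± 0.18 (SE), adjusted p = 0.0186). Of the genes that fell, Clec14a (chr12:58264720-58269290), a lectin-like surface protein of vessels, was at 11.6, 11.9 and 11.2 CPM in controls and 3.27 to 8.51 (median 4.84) in tumors. All 6 tumors were below all 3 controls (log2 fold change -1.04 ± 0.29 (SE), adjusted p = 0.0368). Eng (chr2:32646595-32682669) was at 72.4, 114 and 113 CPM and 54.0 to 75.0 (median 64.4) CPM, and the lowest control lay within the tumors' range (log2 fold change -0.61 ± 0.17 (SE), adjusted p = 0.036).

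VE-cadherin itself, Cdh5 (chr8:104101625-104144511), was at 40.1, 52.6 and 58.2 CPM in controls and 60.6 to 109 (median 69.5) in kidney tumors, apart in all animals but short of the threshold (log2 fold change 0.63 ± 0.20 (SE), adjusted p = 0.0576). Tek was at 128, 151 and 164 and 20.3 to 114 (median 56.6) CPM, again apart without passing (log2 fold change -1.25 ± 0.43 (SE), adjusted p = 0.0696). The other VEGF receptors showed no call either. Kdr was at 148, 217.8 and 210.2 CPM in controls and 81.3 to 285 (median 108) in tumors, and Flt1, VEGF receptor 1, at 135, 179 and 173 and 54.5 to 139 (median 81.4). The highest tumor value of Kdr was that of mouse 4, above all controls, and its 2 libraries differed, at 446 and 127 CPM, against 108 to 226 in the 6 control libraries.

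These calls were few and depended on single animals. Leaving out 1 animal at a time gave 0 to 10 called genes, with 0 without control mouse 2 or control mouse 3, 1 without fusion mouse 6, 2 without fusion mouse 2, fusion mouse 3 or control mouse 1, 3 without fusion mouse 1 and 10 without fusion mouse 5. When only the kidney tumors with less tubule RNA, those of mice 2, 3 and 6, were set against the controls, a choice made after seeing the data, 15 of the 36 were called. Higher were 6 (Angpt2, Cdh5, Ecscr, Egfl7, Esam and Flt4; 22.4% of all genes were higher), and lower were 9 (Adgrl4, Clec14a, Eng, Flt1, Kdr, Prox1, Ptprb, Sox17 and Tek; 20.9% of all genes were lower). The log2 fold change of Tek in these 3 tumors was -2.06 ± 0.28, that of Flt1 -1.19 ± 0.21 and that of Kdr -0.93 ± 0.21, while that of Angpt2 was 1.64 ± 0.43 and that of Cdh5 0.63 ± 0.17. The receptor Flt4 was higher, at 0.86 ± 0.18, and Tie1, at -0.45 ± 0.17, was not called.

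Among 15 other genes of angiogenesis, 5 were higher in kidney tumors than in control kidneys and 0 lower. Pgf, placental growth factor, a ligand of Flt1, was at 0.387, 0.468 and 0.524 CPM in controls and 1.43 to 3.37 (median 1.97) in tumors (log2 fold change 2.23 ± 0.35 (SE), adjusted p = 0.00394). Pdgfb, the ligand with which endothelium recruits pericytes, was at 2.47, 3.58 and 4.19 and 8.84 to 25.0 (median 12.8) CPM (log2 fold change 2.13 ± 0.38 (SE), adjusted p = 0.00749). Both were apart in all animals. Vegfb (1.75 ± 0.38), Vegfc, the ligand of Flt4 (1.43 ± 0.32), and Angpt4 (3.50 ± 0.68) rose as well, as log2 fold changes ± SE. Vegfa, the main ligand of Kdr, was at 52.5, 79.8 and 71.8 CPM in controls and 32.3 to 83.7 (median 55.7) in tumors and was not called (log2 fold change -0.21 ± 0.30 (SE), adjusted p = 0.646). Of 6 genes of kidney capillaries, Gpihbp1, the capillary anchor of lipoprotein lipase, rose (2.61 ± 0.48) and Ehd3, a gene of glomerular endothelium, fell (-0.93 ± 0.19). Of 4 vein genes Ackr1 rose (3.66 ± 0.89), of 8 other endothelial transcription factors Epas1 fell (-0.75 ± 0.21), and of 5 artery genes 0 were called.

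Other cell types moved in the same tumors. Of 10 pericyte and smooth muscle genes, 3 rose (Pdgfrb, Rgs5 and Notch3), and their sum was 434 to 565 CPM in controls and 378 to 916 in tumors. Of 5 macrophage genes, 2 rose (Cd68 and C1qa), with sums of 128 to 151 and 186 to 563 CPM. The 5 proximal tubule genes summed to 10342 to 10976 CPM in controls and 607 to 7129 in tumors, with 0 called. The 5 podocyte genes summed to 323 to 393 and 68.6 to 241 CPM, with 0 called, and of the 4 kidney lineage genes Lhx1 and Pax8 fell. No gene of these lists was at 0 in all kidney tumors. Their part in the endothelial differences was not tested.

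Non-transformed kidney of fusion mice did not differ from control kidney in any of the 36 genes by the test. The counts were 0 higher and 0 lower of 36, where 0.00952% of all genes (2 of 21019) were called in either direction. At an unadjusted p under 0.05, edgeR named 0 of the 36 as higher (5.4% of all genes) and 4 as lower (6.31%). In either direction it named 2462 of all genes, or 11.7%. DESeq2 called 0 of the 36, where it called 1.17% of all genes higher and 1.2% lower. The median log2 fold change of the 36 was -0.04, against 0.03 over all genes. Core genes summed to 407 to 550.5 CPM in non-transformed kidney. Flt4 was at 13.8, 16.5, 21.4 and 13.7 CPM in mice 1, 3, 4 and 5, Angpt2 at 4.34, 4.25, 6.89 and 3.43, and Cdh5 at 35.7, 39.9, 62.8 and 34.2, with ranges that overlapped those of the controls. Without a call, Tie1 lay higher in every non-transformed kidney than in every control, and Emcn, Esm1 and Clec14a lower. The share of all genes apart in this comparison was not computed, so no weight is put on this. Esm1, endocan, a secreted product of sprout tips, was at 13.1, 11.3 and 11.9 CPM in controls and 5.42, 5.24, 10.6 and 7.21 in non-transformed kidney (log2 fold change -0.73 ± 0.26 (SE), adjusted p = 0.333).

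Against non-transformed kidney, all of it from mice that also gave kidney tumors, kidney tumors were higher in 4 of the 36 genes (Angpt2, Flt4, Cdh5 and Ecscr), where 12.1% of all genes were higher, and lower in 0, where 5.02% were lower. At an unadjusted p under 0.05 edgeR named 6 as higher (19.8% of all genes) and 5 as lower (14.4%), and DESeq2 called 6 higher (17.1% of all genes) and 2 lower (10.7%). Angpt2 had the largest of these differences, at 3.44 times the mean of non-transformed kidney (log2 fold change 1.75 ± 0.30 (SE), adjusted p = 0.00434), and each tumor was above each non-transformed kidney. Flt4 was also apart (log2 fold change 0.82 ± 0.18 (SE), adjusted p = 0.0122), as was Ecscr, at 4.7, 5.69, 8.11 and 4.28 CPM in non-transformed kidney (log2 fold change 0.76 ± 0.22 (SE), adjusted p = 0.0383). Cdh5 overlapped by 1 tumor (log2 fold change 0.80 ± 0.22 (SE), adjusted p = 0.034). Median log2 fold change over the 36 was -0.07, against -0.02 over all genes. With the mouse as a block, which uses the 4 mice that gave both tissues, 0 of the 36 were called, where 4.23% of all genes were, with 5 higher (13.7% of all genes) and 0 lower (8.71%) at an unadjusted p under 0.05, and Angpt2 had a log2 fold change of 1.74 ± 0.38, adjusted p = 0.0713. Angpt2 was called whichever animal was left out, and the number of called genes ran from 1 to 6, with 1 without mouse 1 or mouse 3 and 2 without mouse 2. With the tumors of mice 2, 3 and 6 only, 5 were higher (Angpt2, Cdh5, Egfl7, Esm1 and Flt4; 19.2% of all genes were higher) and 10 lower (Adgrl4, Clec14a, Flt1, Kdr, Prox1, Ptprb, Sox17, Sox18, Tek and Tie1; 19.3% were lower). Of other cell types, 3 of 5 macrophage genes (Adgre1, Cd68 and C1qa) and Pdgfrb and Notch3 of the 10 pericyte and smooth muscle genes were higher in kidney tumors, and the podocyte gene Podxl and the kidney lineage gene Lhx1 were lower. With the mouse as a block, Cd68 alone of these was called again. All 5 proximal tubule genes lay lower in every tumor than in every non-transformed kidney, with 0 called, and summed to 607 to 7129 CPM in tumors and 10246 to 13401 in non-transformed kidney. Their part in the endothelial differences was not tested.

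To set sprouting genes beside the amount of endothelial RNA, each animal's log2 level of a gene was taken relative to the mean log2 level of the 12 core genes (0.1 CPM added), as a description without a test. Angpt2 lay at -1.78 ± 0.78 (mean ± SD) in control kidney, -2.02 ± 0.21 in non-transformed kidney, -0.36 ± 0.62 in kidney tumors, -0.19 ± 0.46 in retro-orbital tumors and -0.33 ± 1.62 in brain tumors. The means of the 3 tumor sites lay above those of both kinds of kidney. In brain tumors the values were 1.43 in mouse 1, -1.76 in mouse 2, at the level of control kidney, and -0.65 in mouse 4, and the mean was -1.20 without mouse 1. The mean of control kidney was -2.23 without control mouse 1. Aplnr lay at -0.92 ± 0.28 in control kidney, -0.99 ± 0.42 in non-transformed kidney and 0.12 ± 0.52, 0.53 ± 0.94 and 0.83 ± 0.50 in kidney, retro-orbital and brain tumors. Esm1 lay at -2.22 ± 1.37 in brain tumors (-1.5 without mouse 4), -1.45 ± 0.32 in non-transformed kidney, -1.30 ± 0.45 in retro-orbital tumors, -0.91 ± 0.67 in kidney tumors and -0.75 ± 0.17 in control kidney. Plvap, the protein of capillary diaphragms, lay at 0.82 ± 0.12 in control kidney and 1.13 ± 0.24 in non-transformed kidney. In kidney tumors it lay at 1.10 ± 0.40 and in retro-orbital tumors at 0.62 ± 0.18. In the brain tumors of mice 1, 2 and 4 it lay at 3.64, -0.26 and -0.05, so that the mean of 1.11 rested on mouse 1 and was -0.16 without it. Apln itself was low, at 0.279 to 0.951 CPM in kidney tumors and 1.12, 4.75, 0.701 and 1.29 CPM in retro-orbital tumors of mice 2, 3, 5 and 6.

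**Figure D2:**
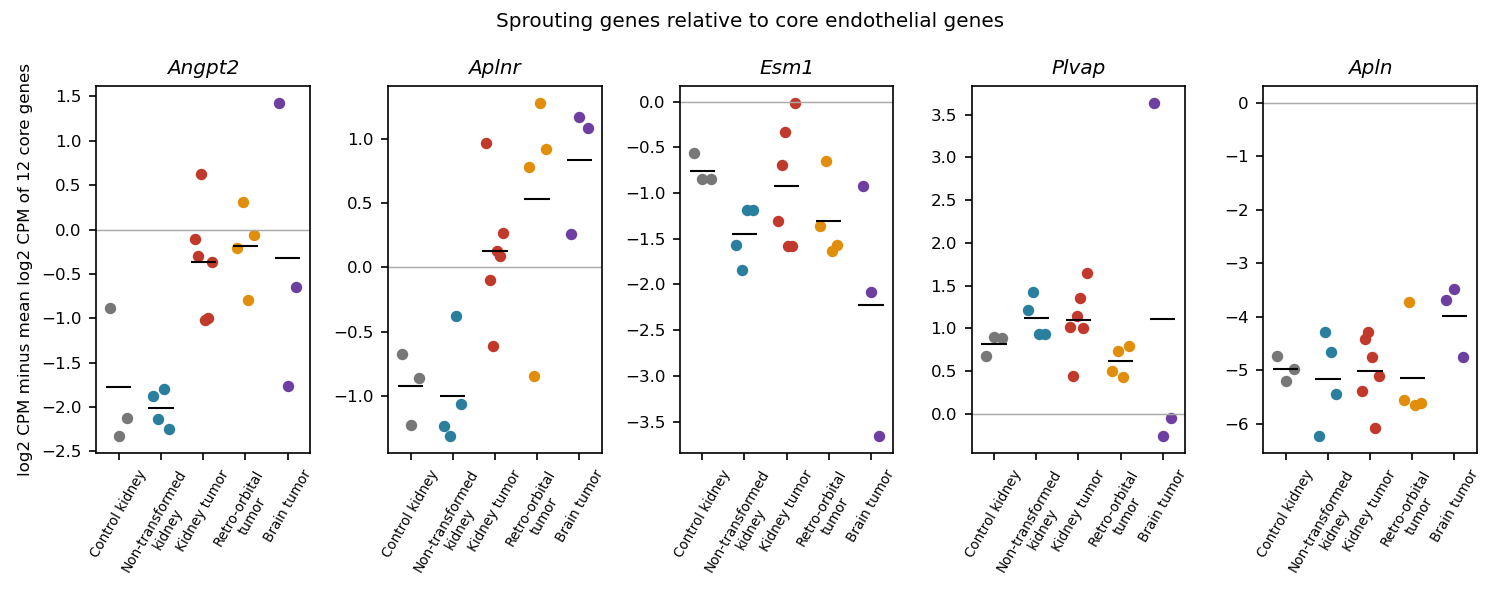
Level of 5 sprouting genes relative to the mean log2 level of the 12 core genes, by adult group. Each point is an animal and each bar a group mean. Angpt2 and Aplnr sit higher in tumors of all 3 sites than in both kinds of kidney by their means. Brain tumors are widely spread in Plvap, Angpt2 and Esm1.

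Retro-orbital tumors carried more RNA of 22 of the 36 genes than kidney tumors, where 8.26% of all genes were higher, and less of 0, where 9.45% were lower. At an unadjusted p under 0.05 edgeR named 32 of the 36 as higher (13.9% of all genes) and 0 as lower (19.4%), and DESeq2 called 29 higher (12.4% of all genes) and 0 lower (15.0%). The median log2 fold change of the 36 was 1.28, against -0.09 over all genes, and 34 of the 36 were above 0. In 17 genes each retro-orbital tumor lay above each kidney tumor, where 8.33% of all genes did. Of the 12 core genes 11 rose, with Adgrl4 not passing (log2 fold change 0.72 ± 0.29 (SE), adjusted p = 0.111). Core genes summed to 799 to 1413 CPM in retro-orbital tumors, above the highest kidney tumor. The groups share 4 mice, and mice 1 and 4 had a kidney tumor but no retro-orbital tumor in the data. Against the kidney tumors with less tubule RNA, those of mice 2, 3 and 6, 26 of the 36 were higher, where 10.1% of all genes were, and 0 lower, where 9.83% were. Gained were Fli1, Ptprb, Sox17, Flt1, Adgrl4 and Kdr, and lost were Esam and Egfl7. On that footing, as log2 fold changes ± SE, Adgrl4 was at 1.27 ± 0.28, Kdr at 1.39 ± 0.17 and Tek at 1.11 ± 0.39, the last not called, while Esam was at 0.91 ± 0.38 and Egfl7 at 0.81 ± 0.25.

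Among junction and surface genes 15 of 20 rose. Cdh5 was at 396, 467, 214 and 439.6 CPM in the retro-orbital tumors of mice 2, 3, 5 and 6, a mean 4.92 times that of kidney tumors (log2 fold change 2.27 ± 0.22 (SE), adjusted p = 0.00116). Pecam1 (chr11:106654217-106750628), the CD31 adhesion molecule by which pathologists count vessels, was at 62.2 to 109 (median 86.0) CPM in kidney tumors and 240.5, 253, 186 and 262 in retro-orbital tumors (log2 fold change 1.46 ± 0.16 (SE), adjusted p = 0.00139). Both genes were apart in all animals, and in both the lowest retro-orbital tumor was that of mouse 5. Vwf (chr6:125546774-125686679), the clotting factor stored in endothelial granules, had the largest change of the 36. It was at 4.27 to 83.2 (median 18.5) CPM in kidney tumors and 329.9, 272, 92.4 and 161 in retro-orbital tumors (log2 fold change 2.81 ± 0.73 (SE), adjusted p = 0.0256). The retro-orbital values were all above the kidney tumors, although the highest kidney tumor, that of mouse 5, came close to the lowest. Robo4 was at 8.5 to 19.7 (median 9.65) and 31.3, 60.7, 22.6 and 35.0 CPM (log2 fold change 1.68 ± 0.30 (SE), adjusted p = 0.00589), Btnl9 at 2.63 to 6.82 (median 3.91) and 13.0, 12.2, 6.68 and 14.0 (log2 fold change 1.40 ± 0.30 (SE), adjusted p = 0.0125), and Rasip1 at 4.46 to 15.6 (median 7.79) and 28.8, 33.1, 15.0 and 21.9 (log2 fold change 1.52 ± 0.34 (SE), adjusted p = 0.014). Robo4 was apart, and Btnl9 and Rasip1 overlapped by the retro-orbital tumor of mouse 5.

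The other junction and surface genes that rose were Mmrn2, a matrix protein and partner of Clec14a (1.58 ± 0.25), Ecscr (1.60 ± 0.18), Icam2, an adhesion molecule for leukocytes (1.70 ± 0.28), Nos3, the endothelial nitric oxide synthase (1.64 ± 0.32), Cldn5 (1.46 ± 0.36), Clec14a (1.23 ± 0.31), Egfl7, a secreted factor of vessels (1.13 ± 0.32), Esam (1.11 ± 0.34) and Plvap (0.98 ± 0.26), as log2 fold changes ± SE. The 5 that did not pass were Adgrl4, Cav1 (0.99 ± 0.35), Ptprb (0.63 ± 0.21), Emcn (0.41 ± 0.18) and Eng (0.37 ± 0.14). Emcn was at 112 to 197 (median 147) CPM in kidney tumors and 219, 197, 141 and 248.8 in retro-orbital tumors, with overlapping ranges.

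Of the 9 receptors, ligands and sprouting genes 4 rose. Aplnr was at 98.5, 35.9, 96.6 and 128 CPM in retro-orbital tumors, all above the kidney tumors (log2 fold change 1.93 ± 0.36 (SE), adjusted p = 0.00625). Angpt2 was at 49.5, 80.0, 22.7 and 65.0 CPM, with the tumor of mouse 5 inside the range of kidney tumors (log2 fold change 1.70 ± 0.34 (SE), adjusted p = 0.00848). Flt4 was at 54.5, 75.3, 38.4 and 50.9 CPM, all above the kidney tumors (log2 fold change 0.85 ± 0.19 (SE), adjusted p = 0.0127). Tie1, the partner receptor of Tek, was at 17.5 to 53.7 (median 23.1) CPM in kidney tumors and 86.9, 83.3, 55.3 and 85.9 in retro-orbital tumors, again apart (log2 fold change 1.43 ± 0.29 (SE), adjusted p = 0.00974). Of the other 5, Kdr was at 254, 252, 253 and 236 CPM, a range narrower than that of the kidney tumors, which reached 285 in mouse 4 (log2 fold change 0.83 ± 0.33 (SE), adjusted p = 0.107). Tek was at 99.8, 37.2, 66.4 and 86.9 CPM, overlapping the kidney tumors (log2 fold change 0.21 ± 0.44 (SE), adjusted p = 0.783). Flt1 (0.85 ± 0.27), Apln (1.74 ± 0.55) and Esm1 (1.09 ± 0.36) did not pass either.

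Of the 6 transcription factors 3 rose. Sox7 (chr14:63943673-63950732), a SoxF factor of vessel fate, was at 1.27 to 5.24 (median 2.16) CPM in kidney tumors and 16.5, 19.8, 9.23 and 17.0 in retro-orbital tumors, a mean 6.35 times as high and apart in all animals (log2 fold change 2.64 ± 0.39 (SE), adjusted p = 0.00266). Its relative Sox18 was at 3.3 to 9.21 (median 3.9) and 14.0, 12.4, 10.9 and 16.2 CPM (log2 fold change 1.46 ± 0.29 (SE), adjusted p = 0.00851), while Sox17, the SoxF factor of arteries, was at 0.922 to 4.4 (median 1.75) and 3.02, 3.65, 2.52 and 3.52 CPM with overlap (log2 fold change 0.61 ± 0.39 (SE), adjusted p = 0.307). The ETS factor Erg was at 7.25 to 19.0 (median 10.6) and 36.01, 31.6, 23.3 and 27.3 CPM (log2 fold change 1.32 ± 0.27 (SE), adjusted p = 0.00927), and Fli1, also an ETS factor, at 11.6 to 30.5 (median 24.3) and 50.3, 40.2, 37.1 and 38.3, apart but not called (log2 fold change 0.86 ± 0.29 (SE), adjusted p = 0.0663). Of the lymphatic genes Flt4 alone passed. Prox1 was at 4.12 to 23.1 (median 7.41) and 6.07, 19.2, 12.6 and 5.26 CPM (log2 fold change -0.08 ± 0.56 (SE), adjusted p = 0.943), and Lyve1, the hyaluronan receptor of lymph vessels, at 0.367 to 14.2 (median 0.72) and 0.39, 0.22, 2.29 and 0.0568 (log2 fold change -2.11 ± 1.36 (SE), adjusted p = 0.307).

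**Figure D3:**
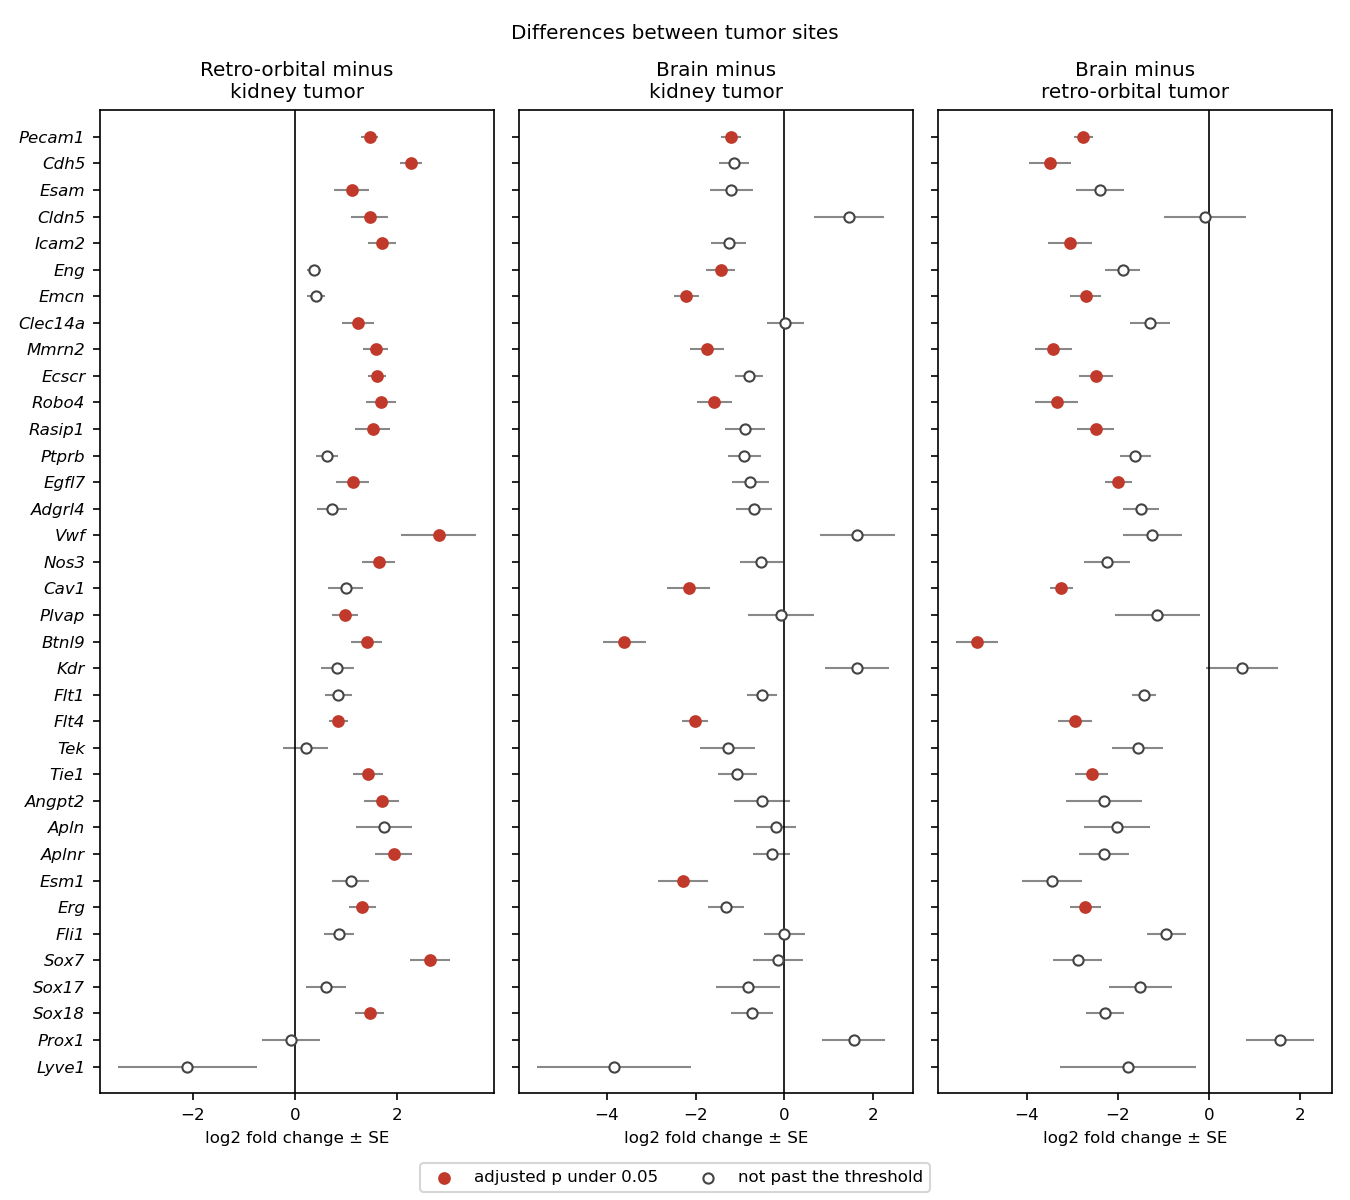
Log2 fold change of each of the 36 genes between tumor sites, with bars of 1 SE, in the 3 comparisons of retro-orbital, brain and kidney tumors. Filled points passed an adjusted p of 0.05. In the retro-orbital panel 22 genes are filled and lie above 0, and in the brain panels 9 and 14 are filled and lie below 0.

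With the mouse as a block, on the 4 mice with both tumors, 11 of the 36 rose in retro-orbital tumors, where 12.2% of all genes were called in either direction. They were Aplnr, Angpt2, Cdh5, Clec14a, Ecscr, Egfl7, Flt4, Icam2, Pecam1, Sox7 and, not called without the block, Kdr (log2 fold change 1.18 ± 0.17, adjusted p = 0.0239). By role they were 6 of the 20 junction and surface genes, 4 of the 9 receptors, ligands and sprouting genes and 1 of the 6 transcription factors, and 6 of the 12 core genes were among them. Leaving out each of the 6 mice in turn gave 12 to 26 genes, with 12 without mouse 3 or mouse 6, 13 without mouse 2 and 26 without mouse 5, and Pecam1, Cdh5, Sox7, Robo4, Mmrn2, Ecscr, Aplnr and Icam2 were called each time. With upper quartile scaling the all-gene median log2 fold change shifted by 0.112 in this comparison, and edgeR called 27 of the 36, all higher, where 9.96% of all genes were higher and 7.26% lower. Pericyte and smooth muscle genes moved too: 4 of 10 rose (Pdgfrb, Rgs5, Kcnj8 and Abcc9, and with the block Notch3 in place of Kcnj8), and they summed to 378 to 916 CPM in the kidney and 1074 to 1409.7 CPM in the retro-orbital tumors. All 4 kidney lineage genes fell, with sums of 194 to 469 and 1.07 to 39.5 CPM. Of 5 platelet genes 0 were called, with sums of 2.42 to 14.4 and 6.42 to 26.3 CPM, and of 5 macrophage genes 0, with sums of 186 to 563 and 211 to 532. Lrp2 was at 63.4, 156, 663 and 94.9 CPM in the retro-orbital tumors, highest in mouse 5, the tumor with the lowest core sum. The part of these cells in the endothelial difference was not tested.

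Related genes outside the 36 moved the same way in part. Of 15 other angiogenic genes 3 rose in retro-orbital tumors and 0 fell: Pgf, at 1.43 to 3.37 (median 1.97) CPM in kidney tumors and 16.0, 18, 10.7 and 23.6 in retro-orbital tumors (log2 fold change 2.97 ± 0.29 (SE), adjusted p = 0.00116), Dll4, the Notch ligand of sprout tips and arteries, at 8.64 to 21.1 (median 10.8) and 59.4, 92.4, 26.4 and 65.2 (log2 fold change 2.27 ± 0.33 (SE), adjusted p = 0.00248), and S1pr1, the sphingosine phosphate receptor of endothelium (1.54 ± 0.23). Of 5 artery genes 3 rose: Gja5 (2.16 ± 0.42) and Gja4 (1.55 ± 0.26), connexins of arterial endothelium, and the ligand Efnb2 (1.77 ± 0.24). Of 4 vein genes 0 were called. Of 8 other endothelial transcription factors 4 rose (Ets1, Epas1, Hhex and Tal1), and of 5 genes measured of kidney capillaries Ehd3 and Rgcc fell. Vegfa was at 84.1, 118, 61.2 and 58.0 CPM and was not called (log2 fold change 0.43 ± 0.30 (SE), adjusted p = 0.339). With the mouse as a block, Pgf, S1pr1, Efnb2, Ets1 and Hhex were called higher and Rgcc lower again, while Dll4, Gja5, Gja4, Epas1, Tal1 and Ehd3 were not called. The block also called Nrp1, a co-receptor of VEGF, and the vein gene Selp higher, and the ligand Vegfd lower (-1.37 ± 0.29, log2 fold change ± SE).

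Brain tumors carried less RNA of several endothelial genes than kidney tumors. Lower were 9 of the 36 (Btnl9, Esm1, Emcn, Cav1, Flt4, Mmrn2, Robo4, Eng and Pecam1), where 4.2% of all genes were, and 0 were higher, where 4.54% were. At an unadjusted p under 0.05 edgeR named 16 as lower (13.3% of all genes) and 0 as higher (15.2%), and DESeq2 called 14 lower (11.9% of all genes) and 0 higher (10.6%). The median log2 fold change of the 36 was -0.86, against 0.03 over all genes. Emcn (chr3:137341067-137432185) was at 30.2, 18.2 and 41.9 CPM in the brain tumors of mice 1, 2 and 4, all below the lowest kidney tumor (log2 fold change -2.21 ± 0.29 (SE), adjusted p = 0.00669). Btnl9 (chr11:49165585-49187159) was at 0.407, 0.365 and 0.208 CPM, its mean 13.1 times lower (log2 fold change -3.61 ± 0.48 (SE), adjusted p = 0.007). Flt4 was at 8.13, 4.1 and 8.53 CPM (log2 fold change -2.01 ± 0.29 (SE), adjusted p = 0.00825). These 3 genes were called whichever animal was left out, and each was apart in all animals.

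Pecam1 was at 31.3, 28.8 and 42.1 CPM in brain tumors (log2 fold change -1.21 ± 0.22 (SE), adjusted p = 0.0181), and Cav1, the coat protein of caveolae, at 5.22, 6.57 and 7.97 against 18.6 to 68.9 (median 23.3) in kidney tumors (log2 fold change -2.16 ± 0.48 (SE), adjusted p = 0.0302). Both were apart. Esm1 was at 4.1, 1.4 and 1.04 CPM against 6.33 to 17.6 (median 11.7) (log2 fold change -2.28 ± 0.56 (SE), adjusted p = 0.0404), Mmrn2 at 4.14, 3.28 and 7.88 against 14.0 to 30.0 (median 16.0) (log2 fold change -1.75 ± 0.38 (SE), adjusted p = 0.0277), Robo4 at 3.69, 2.1 and 5.03 (log2 fold change -1.58 ± 0.39 (SE), adjusted p = 0.0416) and Eng at 23.2, 10.7 and 33.6 (log2 fold change -1.44 ± 0.32 (SE), adjusted p = 0.0311). For all 9 genes every brain tumor lay below every kidney tumor. With the mouse as a block, on 3 mice, 0 of the 36 and 0.0% of all genes were called, with 1 of the 36 higher (4.72% of all genes) and 15 lower (8.33%) at an unadjusted p under 0.05, and Emcn had a log2 fold change of -2.26 ± 0.30, adjusted p = 0.275. Leaving out 1 mouse gave 3 to 6 genes, with 3 without mouse 2, 4 without mouse 1 and 6 without any other, and with the kidney tumors of mice 2, 3 and 6 only, 3 were lower, where 1.65% of all genes were. Among other vessel genes, Ackr1 of 4 vein genes was higher. Lower were Nrp1 and Vegfd of 15 other angiogenic genes and Gja5 of 5 artery genes. Also lower were Gpihbp1 of 6 kidney capillary genes and Mmrn1 and Ccl21a of 4 other lymphatic genes. Of 8 other endothelial transcription factors 0 were called. None of these calls held with the mouse as a block. Other cell types moved in the same comparison. All 10 pericyte and smooth muscle genes had values below 0, with Pdgfrb, Cspg4 and Notch3 called, and summed to 174 to 367 CPM in brain and 378 to 916 in kidney tumors. Of the 4 kidney lineage genes Pax2, Pax8 and Cdh16 fell, with sums of 2.07 to 7.6 and 194 to 469 CPM, and of 5 podocyte genes Synpo fell, with sums of 37.9 to 48.1 and 68.6 to 241. Of the 5 neuronal and glial genes Mbp, of myelin, rose (3.27 ± 0.65, log2 fold change ± SE). Their part in the endothelial difference was not tested.

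The 3 brain tumors differed among themselves in Kdr and Vwf and in genes that separate brain vessels from others. Kdr was at 67.0, 154 and 997 CPM in mice 1, 2 and 4, so that mouse 4 exceeded every other adult sample. Vwf was at 32.5, 61.9 and 172 CPM, and Cldn5 at 1.55, 8.04 and 41.0, both highest in mouse 4 as well. Plvap, which brain capillaries with an intact barrier lack, was at 99.4, 5.15 and 13.8 CPM, and here mouse 1 was the highest. Slco1c1, the thyroid hormone transporter of the blood-brain barrier, was at 0.00925, 23.7 and 13.4 CPM, against 0.058 to 1.76 in kidney tumors. It is 1 of 5 genes of barrier endothelium, of which 0 were called between brain and kidney tumors, 2 with values above 0 and 3 below. The 5 genes summed to 61.8 to 344 CPM in brain tumors and 75.1 to 293 in kidney tumors, so the ranges overlapped. Mouse 1 thus had the high Plvap and the least Slco1c1. Its tumor also had the lowest sum of neuronal and glial genes, at 33.1 CPM, in the range of 14.3 to 82.0 of the kidney tumors. Prox1 was at 6.07, 57.2 and 29.6 CPM, highest in mouse 2, the tumor with the most neuronal and glial RNA. Neither the part of brain tissue in these values nor that of the animal was tested.

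**Figure D4:**
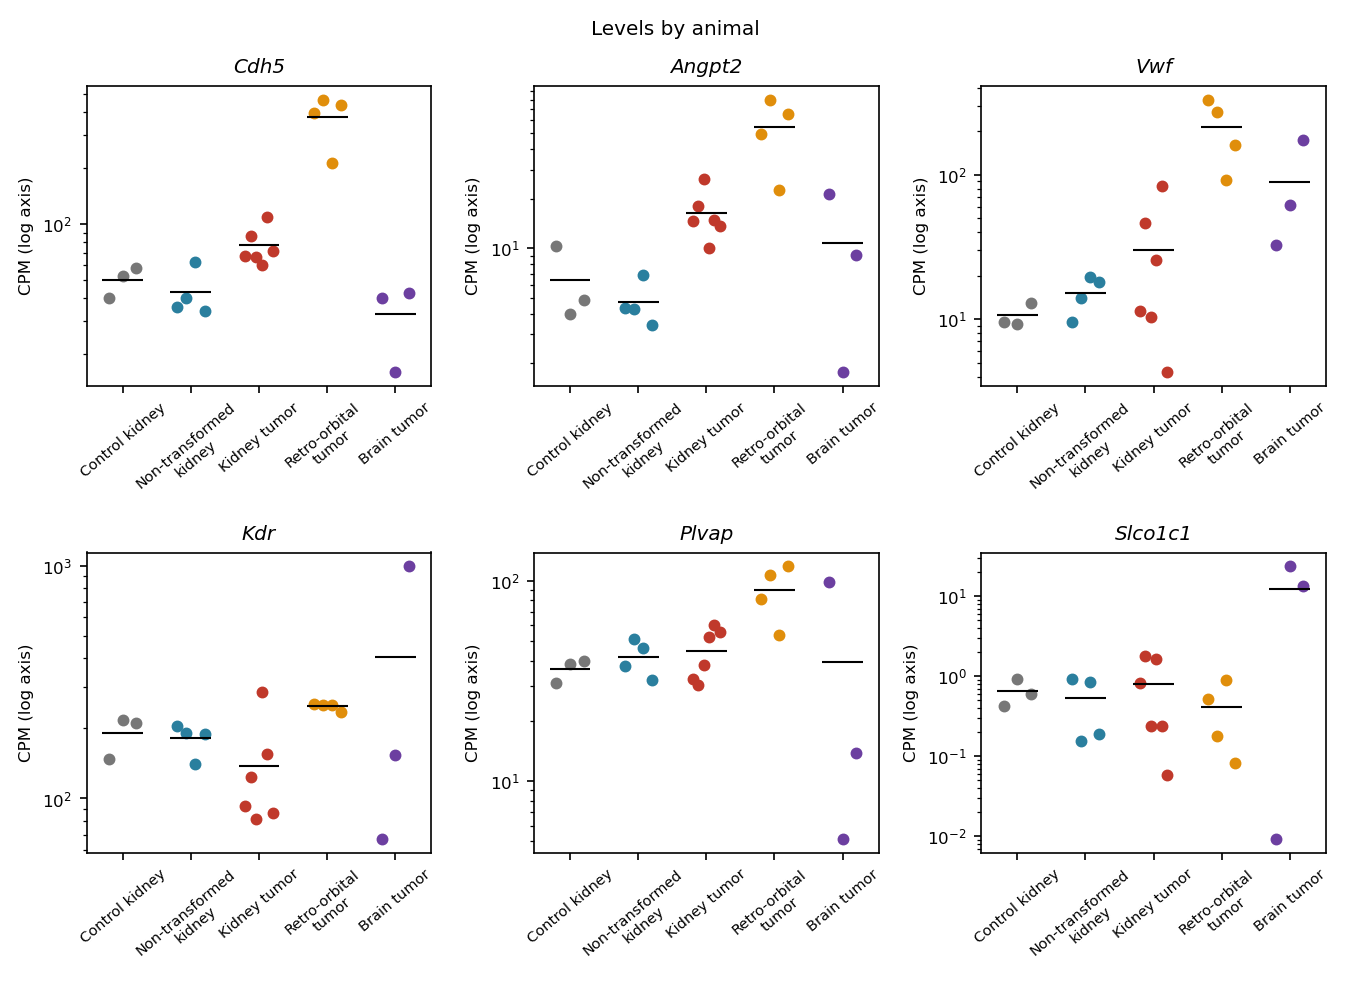
CPM of Cdh5, Angpt2, Vwf, Kdr, Plvap and the barrier transporter Slco1c1 in each adult animal, on log axes, with a bar at each group mean. Retro-orbital tumors are highest in Cdh5, while the 3 brain tumors are spread widely in Kdr, Plvap and Slco1c1.

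Between brain and retro-orbital tumors the median difference was the largest of the 7 comparisons. Of the 36 genes 14 were lower in brain tumors, where 1.34% of all genes were, and 0 were higher, where 0.395% were. At an unadjusted p under 0.05 edgeR named 28 as lower (10.3% of all genes) and 0 as higher (11.2%), and DESeq2 called 27 lower (7.97% of all genes) and 0 higher (7.32%). The median log2 fold change was -2.29, against 0.04 over all genes, and in 29 genes each brain tumor lay below each retro-orbital tumor, where 11.3% of all genes did. Of the core genes 9 of 12 fell, and all 12 were apart. Core genes summed to 139.6 to 313 CPM in brain tumors. The brain and retro-orbital tumors are those of the comparisons above, so the results are not separate evidence.

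Btnl9 had the largest fall (log2 fold change -5.09 ± 0.46 (SE), adjusted p = 0.013), and Robo4 (log2 fold change -3.34 ± 0.47 (SE), adjusted p = 0.028) and Rasip1, at 3.23, 3.13 and 6.53 CPM in brain tumors (log2 fold change -2.49 ± 0.41 (SE), adjusted p = 0.0377), fell too. Cdh5 was at 40.1, 16.0 and 42.8 CPM in brain tumors, its mean 11.5 times lower than in retro-orbital tumors (log2 fold change -3.49 ± 0.45 (SE), adjusted p = 0.0229). Pecam1 (log2 fold change -2.76 ± 0.21 (SE), adjusted p = 0.0099) and Cav1 (log2 fold change -3.24 ± 0.25 (SE), adjusted p = 0.0113) had the smallest errors relative to their change. The other 8 that fell were Mmrn2, Icam2, Flt4, Erg, Emcn, Tie1, Ecscr and Egfl7, with log2 fold changes from -3.42 to -1.99. Icam2 was at 1.29, 0.92 and 2.38 CPM, Erg at 3.9, 2.84 and 6.46, Tie1 at 8.69, 9.19 and 20.4, Ecscr at 4.31, 3.55 and 8.28 and Egfl7 at 12.0, 14.3 and 22.4.

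As log2 fold changes ± SE, genes that were apart without passing included Angpt2 (-2.30 ± 0.83), Aplnr (-2.30 ± 0.55), Sox7 (-2.88 ± 0.54), Sox18 (-2.29 ± 0.42), Nos3 (-2.24 ± 0.51), Esam (-2.40 ± 0.53), Clec14a (-1.30 ± 0.44), Ptprb (-1.62 ± 0.34) and Adgrl4 (-1.49 ± 0.39). Of the 7 with overlap, Kdr (0.71 ± 0.79) and Prox1 (1.55 ± 0.75) had values above 0, while Cldn5 (-0.09 ± 0.89), Vwf (-1.25 ± 0.65), Plvap (-1.14 ± 0.93), Tek (-1.57 ± 0.56) and Lyve1 (-1.78) had values below 0. Leaving out 1 mouse gave 0 to 23 called genes, with 0 without mouse 2, 2 without mouse 3 or mouse 6 and 23 without mouse 4. Only mouse 2 gave both tumors, so no block could be fitted. Of the 10 pericyte and smooth muscle genes 5 fell (Pdgfrb, Abcc9, Cspg4, Acta2 and Notch3), and they summed to 174 to 367 CPM in brain tumors. Their part was not tested. Of other vessel genes, on the same scale, Dll4 (-3.76 ± 0.58), Gja5 (-4.94 ± 0.90), Sema3g (-2.88 ± 0.50), Ets1 (-2.33 ± 0.38) and Epas1 (-1.41 ± 0.26) fell, and of 5 genes of barrier endothelium Foxq1 fell (-2.43 ± 0.40). The other 4 of that list had values above 0, none called: Slco1a4 (5.15 ± 2.13), higher in every brain tumor than in every retro-orbital tumor, Slco1c1 (4.92 ± 1.76), Mfsd2a (3.29 ± 1.52) and Abcb1a (0.09 ± 0.48), with a median over the 5 of 3.29, against 0.04 over all genes.

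Libraries from the same mouse's kidney tumors gave a measure of spread within an animal. In the 5 mice with more than 1 library, the median difference between libraries over the 36 genes was 0.18 to 0.67 on the log2 scale, and core sums differed by factors of 1.13 to 1.7. The largest single difference was that of Vwf in mouse 4, at 2.81. Differences of Vwf, Lyve1, Prox1 and Aplnr between libraries of a mouse were thus as large as some differences between sites.

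In fetal kidneys the endothelial genes did not separate by the test. The Pax8-Cre set was compared to ask what fusion expression in the developing kidney does to vessel transcripts. Of the 36 genes 0 were called, where 2.67% of all genes were. At an unadjusted p under 0.05 edgeR named 6 of the 36 as higher (12.6% of all genes) and 0 as lower (7.74%). In either direction it named 4609 of all genes, or 20.3%. The titles share a prefix among dysmorphic fetuses 1 to 3 and control fetuses 1 and 2, and another among dysmorphic fetuses 4 and 5 and control fetus 3, and what it stands for is not given. With the prefix as a covariate edgeR called 0 of the 36 and 1.8% of all genes and named 7 of the 36 as higher (13.5% of all genes) and 1 as lower (11.0%) at an unadjusted p under 0.05, with a median log2 fold change of 0.22 and the lowest adjusted p at Kdr (0.52 ± 0.10, adjusted p = 0.0545). DESeq2 called 5 of the 36 higher in dysmorphic kidneys (Cav1, Cdh5, Prox1, Pecam1 and Kdr), where it called 9.41% of all genes higher and 3.28% lower, and 0 of the 36 lower. The median log2 fold change was 0.18, against -0.04 over all genes, and core genes summed to 254 to 419.9 CPM in control and 365 to 521 in dysmorphic fetal kidneys.

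Of the endothelial genes followed, only Cdh5, Pecam1 and Kdr lay higher in every dysmorphic kidney than in every control. For the fetal comparison the share of all genes apart was not computed, so no weight is put on this. Cdh5 was at 87.3, 52.5 and 60.8 CPM in control fetuses 1, 2 and 3 and 145, 88.4, 134, 151 and 113 in dysmorphic fetuses 1 to 5 (log2 fold change 0.92 ± 0.23 (SE), adjusted p = 0.076). Pecam1 was at 97.4, 79.9 and 71.2 and 158, 110.0, 149.8, 128 and 99.6 CPM (log2 fold change 0.65 ± 0.19 (SE), adjusted p = 0.11), and Kdr at 143, 116 and 97.3 and 179, 172, 169, 166 and 148 (log2 fold change 0.49 ± 0.14 (SE), adjusted p = 0.0991). Cav1 was at 64.3, 118 and 108 and 301, 151, 205, 223 and 109 CPM, with overlap (log2 fold change 1.03 ± 0.35 (SE), adjusted p = 0.152). The sprouting genes did not differ by the test: Aplnr was at 166, 125 and 88.1 and 142, 106, 108, 129 and 91.0 CPM (log2 fold change -0.13 ± 0.22 (SE), adjusted p = 0.79), and Angpt2 at 8.65, 4.75 and 3.74 and 6.19, 5.31, 6.91, 5.58 and 5.49 (log2 fold change 0.05 ± 0.28 (SE), adjusted p = 0.946).

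Of the lymphatic genes 0 passed, and all 3 overlapped between the groups. Lyve1 was at 6.63, 17.4 and 15.8 CPM in controls and 34.46, 13.7, 30.2, 32.7 and 17.2 in dysmorphic kidneys (log2 fold change 0.95 ± 0.42 (SE), adjusted p = 0.253), and Prox1 at 8.02, 13.9 and 11.4 and 19.6, 13.8, 23.0, 23.3 and 16.1 (log2 fold change 0.79 ± 0.25 (SE), adjusted p = 0.131), while Flt4 was at 15.9, 13.8 and 15.4 and 9.98, 11.9, 8.77, 13.7 and 14.4 (log2 fold change -0.35 ± 0.19 (SE), adjusted p = 0.347). Emcn was at 149, 74.4 and 31.0 CPM in controls, against 78.5, 91.9, 63.6, 50.3 and 47.2 in dysmorphic kidneys. Of the remaining genes none was called, and their log2 fold changes lay between -0.20 and 0.62.

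Other tissue moved in the fetal samples. Of 5 skeletal muscle genes 4 were higher in dysmorphic kidneys (Acta1, Ckm, Myh4 and Tnnt3), with sums of 749 to 974 CPM in controls and 1949 to 4474 in dysmorphic kidneys. Of 5 macrophage genes Adgre1 and Mrc1 were higher, with sums of 146 to 178 and 278 to 524 CPM. The podocyte genes, of which Podxl fell, summed to 247.7 to 393 and 79.5 to 158, and the kidney lineage genes, with 0 called, to 5.58 to 276 and 0.751 to 56.6. Control fetus 3 had the lowest control value of the kidney lineage genes, 5.58 CPM, against 276 and 112 in the other controls. Its proximal tubule genes summed to 1418 CPM, against 1446 and 1212, of which Cubn, also known in yolk sac, made 1342 CPM, and the other 4 of that list were lowest there among the controls. In dysmorphic kidneys the proximal tubule sum was 23.4 to 853 CPM, with 0 called. The part of this tissue in the endothelial values was not tested. Without control fetus 1 the median log2 fold change of the 36 was 0.41 with 0 called, without control fetus 3 it was 0.16 with 0 called, and without dysmorphic fetus 2 the number of called genes was 1.

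**Figure D5:**
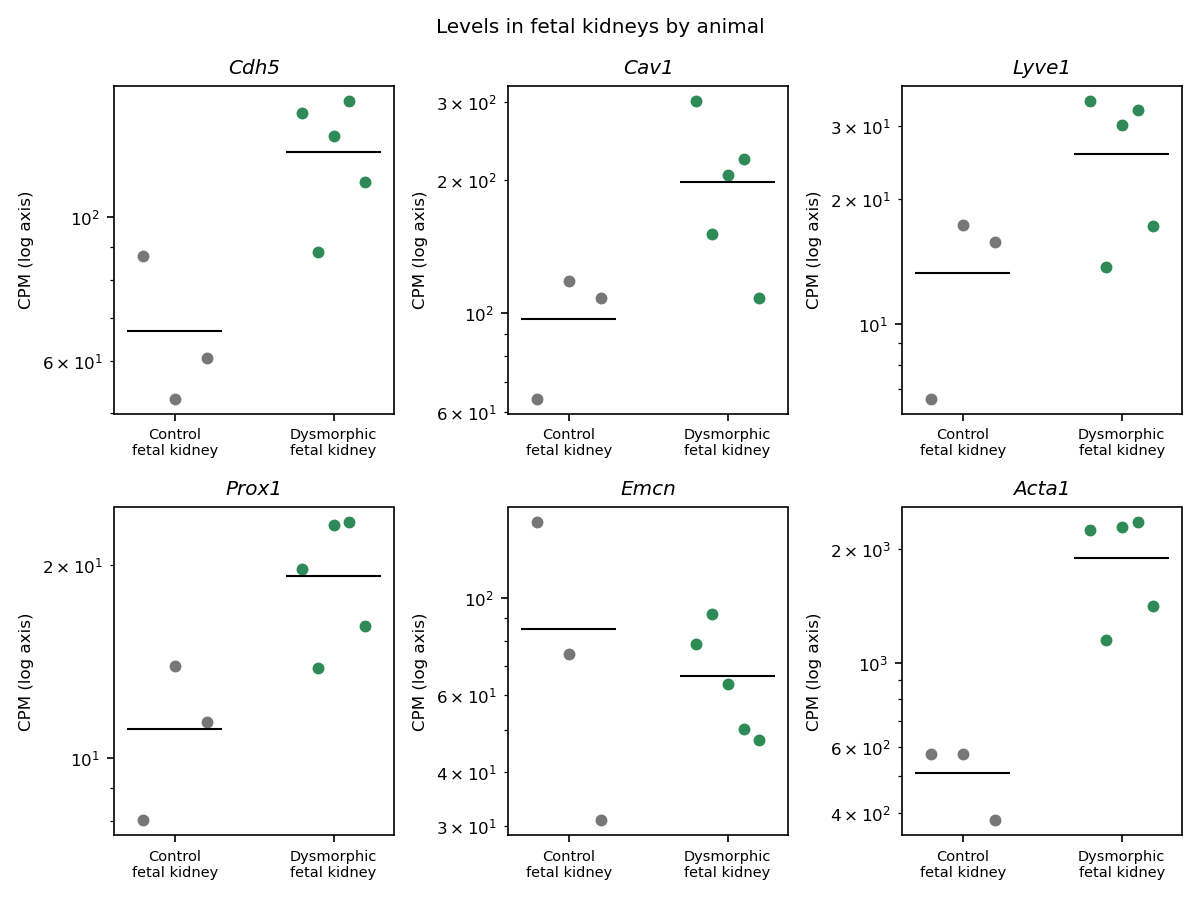
CPM of Cdh5, Cav1, the lymphatic genes Lyve1 and Prox1, Emcn and the muscle gene Acta1 in each fetal kidney, with a bar at each group mean. Cdh5 and Acta1 are apart between the groups, while Cav1, Lyve1, Prox1 and Emcn overlap.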

How the data were processed

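The 36 mouse libraries were made from total RNA with a stranded kit without removal of ribosomal RNA, per the labels. The authors deposited raw counts per gene, not normalized. The submitters' processing notes name FastQC, MultiQC, Bowtie2, STAR 2.5.2a and the builds GRCm38 and mm10; the counter and annotation are not given in the sources used here. In each library 79.04% to 84.33% of the counts from 1 to 20 were even. The cause of this was not tested, and fits on halved counts were among the alternatives. Of 53379 genes, 53274 matched GENCODE M21.

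Counts of the same animal and tissue were summed. Comparisons used edgeR 4.0.16 (quasi-likelihood test, TMM factors, filterByExpr, Benjamini-Hochberg adjustment over all genes tested) in R 4.3.3, on their own groups. Each SE is the size of the log2 fold change over the square root of the F statistic. The script was tested on simulated data. Levels are CPM with TMM factors, set separately in the adult and fetal tables. DESeq2 1.42.0 and limma 3.58.1 were alternatives. Same-numbered samples are the same mouse, from the titles: deviations of paired kidney and retro-orbital tumors correlated at 0.124 to 0.246 over 4 pairs, those of kidney tumor and non-transformed kidney at 0.019 to 0.169 over 4, and those of brain and kidney tumors at -0.038 to -0.01 over 3. Any of the 36 genes and of the marker lists could be named, with Gpnmb. The 36 genes and the lists were chosen with earlier results of these data known.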

Additional observations from a re-analysis of the deposited data

Results flagged for a closer look

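Of 144 member levels by group of 4 or more animals, 12 held an animal whose gap to its nearest neighbour, as a share of the group's whole range, was above Dixon's 95% critical value, where chance gives about 7.2. In the kidney tumor of mouse 5, Sox7 was at 5.24 CPM against at most 2.54 in the others, Sox18 at 9.21 against 4.93, Robo4 at 19.7 against 12.5 and Mmrn2 at 30.04 against 18.6. Mouse 5 gave the highest kidney tumor value in 21 of the 36 genes. Kdr was at 285 CPM in the kidney tumor of mouse 4, against at most 155 in the others. In the kidney tumor of mouse 2, Cav1 was at 68.9 CPM against 32.0 and Lyve1 at 14.2 against 2.66. In retro-orbital tumors, Tie1 was lowest in mouse 5 at 55.3 CPM, below 83.3 in the next, and Lyve1 was highest there at 2.29 against 0.390. Kdr was lowest in the retro-orbital tumor of mouse 6, at 236 against 252, in a group of narrow range. Apln was at 4.75 CPM in the retro-orbital tumor of mouse 3, against at most 1.29. In non-transformed kidney, Aplnr was highest in mouse 4, at 18.6 CPM against at most 7.90 in the others.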

How the results depend on the processing

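The number of the 36 genes called was recomputed under each alternative. The share of all genes called is given above for DESeq2, the replicate block and the kidney tumors of mice 2, 3 and 6 only. For the joint fit, every library as a sample, limma-voom, no filter and 1 animal left out it was not computed. Counts under those settings, here and above, are therefore not set against all genes. For kidney tumor against control kidney it was 6, and 10 with DESeq2, 3 with no filter on low counts, 2 in a joint fit of all 5 adult groups, 12 with every library as a sample, 10 with limma-voom and the animal as a random block, 15 with the kidney tumors of mice 2, 3 and 6 only (chosen after seeing the data), and 0 to 10 with 1 animal left out. For non-transformed against control kidney it was 0 under every alternative run. For kidney tumor against non-transformed kidney it was 4, and 8 with DESeq2, 7 with every library as a sample, 10 with limma-voom, 0 with the mouse as a replicate block, 15 with the kidney tumors of mice 2, 3 and 6 only, and 1 to 6 with 1 mouse left out. For retro-orbital against kidney tumor it was 22, and 11 with the replicate block, 26 with the kidney tumors of mice 2, 3 and 6 only and 12 to 26 with 1 mouse left out. For brain against kidney tumor it was 9, and 14 with DESeq2, 17 in the joint fit, 0 with the replicate block, 3 with the kidney tumors of mice 2, 3 and 6 only, and 3 to 6 with 1 mouse left out. For brain against retro-orbital tumor it was 14, and 27 with DESeq2, 26 in the joint fit and 0 to 23 with 1 mouse left out; neither block could be fitted there, with 1 shared mouse, and every library as a sample is the same fit. For the fetal kidneys it was 0, and 5 with DESeq2 and 0 to 1 with 1 fetus left out. Beyond fewer samples in the fits with a block or without an animal, the cause of these shifts was not tested.

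Of 905 repeats of the 55 single calls, 713 passed again, 192 did not and 0 reversed. For brain against retro-orbital tumor the repeats include every library as a sample, which is the same fit and could not fail. They also include the kidney tumors of mice 2, 3 and 6 only, chosen after seeing the data. The repeats share samples and are not separate evidence. Of 197 results without a call, 60 changed sign under some alternative. Groups of 3 to 6 animals, unequal amounts of tubule, brain and muscle RNA, and paraffin-embedded tissue limit what these tests can detect. Each p-value sets a group difference against the spread between these animals. In fits without a block, tissues of the same mouse entered as separate samples.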
